A study of Mus musculus with 4 samples.

Results

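The genes described here build and supply the DNA replication fork: the 6 subunits of the MCM helicase (Mcm2, Mcm3, Mcm4, Mcm5, Mcm6 and Mcm7), the sliding clamp Pcna, both subunits of ribonucleotide reductase (Rrm1 and Rrm2) and thymidine kinase Tk1. They were followed through 15 probe sets of a mouse expression array, out of 45101 in the deposited table. The members were chosen by their manufacturer's probe set numbers, which a list made for this work assigns to the 10 genes; no annotation table was used to check those assignments. Expression was profiled in fibroblasts of the C57BL/6 strain, labelled as murine epithelial fibroblasts and as MEFs, with 2 arrays of wild type cells and 2 of cells in which SIN1 was ablated (SIN1 KO). SIN1, encoded by Mapkap1, is a subunit of mTOR complex 2, and the labels describe the SIN1 KO cells as having altered metabolism. Cells of both genotypes were kept in DMEM. Whether same-genotype arrays stem from independent cultures, clones or embryos is not stated, so the p-values reflect array-to-array spread that may be no more than technical.

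The MCM subunits form a ring that is loaded onto replication origins before DNA synthesis begins and unwinds the double helix ahead of the polymerases. PCNA encircles DNA and tethers polymerases to it, ribonucleotide reductase makes deoxyribonucleotides from ribonucleotides, and thymidine kinase salvages thymidine. These genes are textbook targets of E2F transcription factors, their transcripts are most abundant as cells enter and pass through S phase, and in cultured fibroblasts they are commonly read as markers of proliferation.

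Promoter sequence is shown because E2F sites are the feature that this class of genes is known to share. RefSeq windows on GRCm38.p6, from 250 bases before to 50 after each transcript start, were matched for 9 of the 10 genes (all but Mcm4), in 10 windows. Searching both strands for the E2F octamers TTTCCCGC, TTTCGCGC, TTTGCCGC and TTTGGCGC, with overlapping matches counted, found at least 1 in the windows of Mcm3, Mcm5, Mcm6 and Mcm7, which is 4 of 10 windows against 2.26% of 32851 windows of the same length. CCAAT, the core of the box bound by NF-Y, lay in 9 of the 10 windows, against 37.4% of all windows. Each stretch below is written in the direction of its gene, with these letters in capitals (for Mcm5 and Rrm2 both motifs, for the others the octamers).
Mcm5, chr8:75109259-75109508, plus strand: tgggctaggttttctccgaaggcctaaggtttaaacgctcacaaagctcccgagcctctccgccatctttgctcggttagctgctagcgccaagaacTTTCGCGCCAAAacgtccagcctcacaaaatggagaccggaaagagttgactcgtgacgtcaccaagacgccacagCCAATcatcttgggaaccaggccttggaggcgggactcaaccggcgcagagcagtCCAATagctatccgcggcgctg
Mcm6, chr1:128359795-128359824, minus strand: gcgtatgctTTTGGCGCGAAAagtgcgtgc
Mcm6, chr1:128359734-128359763, minus strand: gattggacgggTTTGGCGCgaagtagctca
Mcm7, chr5:138172030-138172059, minus strand: aatttcgaaccGCGGGAAAcagggtgtcca
Mcm7, chr5:138171849-138171878, minus strand: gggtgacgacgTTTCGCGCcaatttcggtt
Mcm3, chr1:20820265-20820294, minus strand: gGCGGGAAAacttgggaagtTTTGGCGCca
Rrm2, chr12:24708004-24708253, plus strand: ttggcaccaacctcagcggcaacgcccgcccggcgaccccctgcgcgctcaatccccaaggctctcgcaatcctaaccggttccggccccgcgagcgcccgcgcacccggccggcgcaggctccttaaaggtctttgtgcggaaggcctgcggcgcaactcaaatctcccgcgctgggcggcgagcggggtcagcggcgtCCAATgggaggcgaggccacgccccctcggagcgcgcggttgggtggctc
In Mcm5 and in the upstream stretch of Mcm6, 2 octamers on opposite strands overlap. The 250 bases of Rrm2 hold a CCAAT and none of the octamers, and the windows of Mcm2, Pcna, Rrm1 and Tk1 hold no octamer either. A match is a description of letters in these windows only.

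The measured differences of the replication genes between wild type and SIN1 KO cells did not share one direction. In Mcm5, Mcm7 and Tk1 the SIN1 KO arrays were both higher than either wild type array, and in Rrm2 they were both lower. Rrm1, averaged over its probe sets, was also lower on both, at 10.23 and 10.10 against 10.24 and 10.67. Mcm4, Mcm6 and Pcna differed more between the arrays of each genotype than between the genotypes. In Mcm2, Mcm3 and Rrm1 the larger gap within a genotype also exceeded the genotype difference. For Mcm5 the SIN1 KO arrays were 0.62 apart and the genotype difference was 0.62. None of the 15 probe sets passed limma's test at an adjusted p of 0.05, in which 0% of the 45037 probe sets tested were called higher and 0% lower. The members' adjusted p-values ran from 0.82 to 0.973, and each of their 95% intervals included 0. At an unadjusted p of 0.05, 0 of 15 members were called in either direction, beside 3% of all probe sets called higher and 2.57% called lower in SIN1 KO. The median log2 difference (SIN1 KO minus wild type) was -0.20 over the members and 0.04 over all probe sets tested. It was above 0 for 6 members and below for 9, beside 53.9% of all probe sets above 0. The members' median has no stable sign: without wild type 2 it was 0.10, and without SIN1 KO 2 it was 0.04.

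All 15 members were clearly expressed. Their values, on the log2 scale of RMA, lay between 8.20 and 11.70 on every array, at least 3.92 above the highest of 27 Bacillus subtilis control probe sets on the same array (3.75 to 4.27). With so few arrays precision was limited: the standard errors of the members' log2 differences ranged from 0.24 to 0.62, with a median of 0.29.

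**Figure D1:**
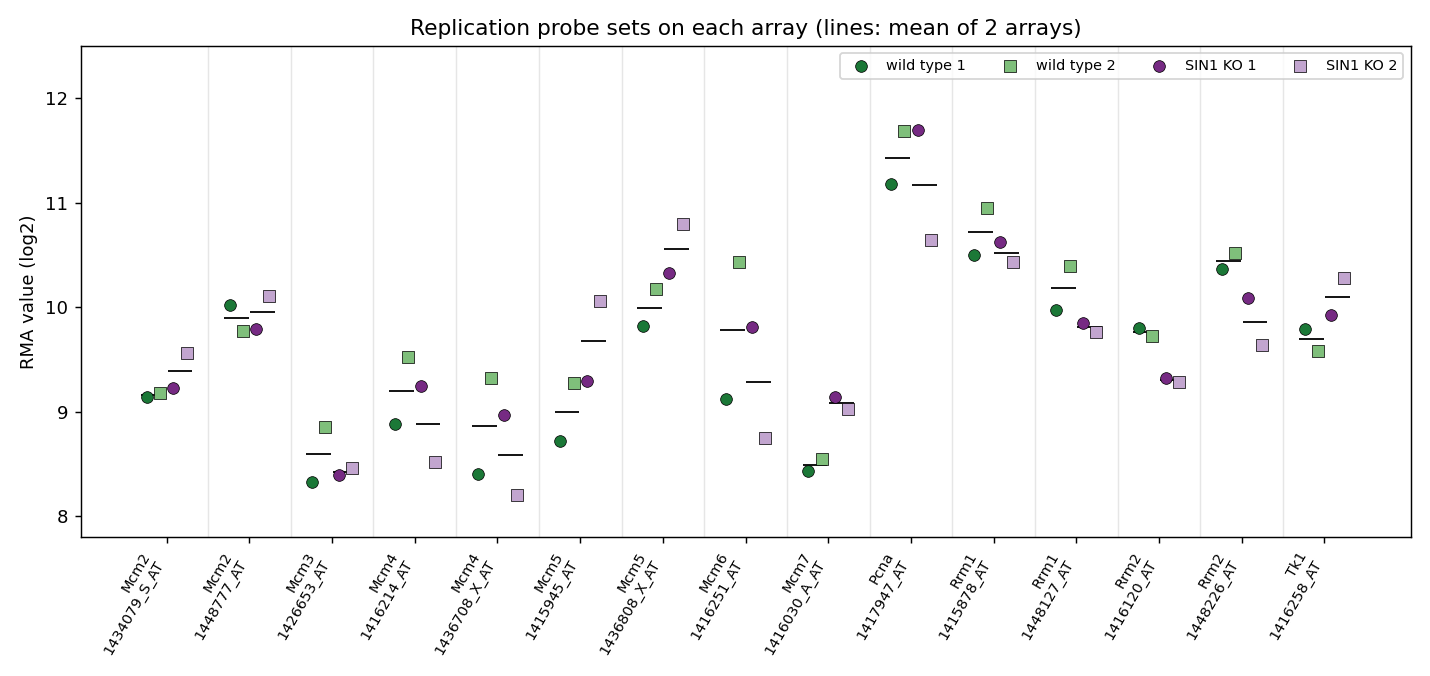
The RMA value (log2) of each of the 15 replication probe sets is plotted for wild type 1, wild type 2, SIN1 KO 1 and SIN1 KO 2, with a line at the mean of the 2 arrays of each genotype. Mcm7 and the first Rrm2 probe set (1416120_AT) show the genotypes apart with little spread within them, while Mcm6 spans 1.69 between its highest and lowest array, which are wild type 2 and SIN1 KO 2.

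Among the helicase subunits, Mcm7 gave the clearest separation of the genotypes. Mcm7, a subunit of the catalytic core of the ring, is represented by 1416030_A_AT, which measured 8.43 and 8.55 on the wild type arrays and 9.14 and 9.02 on the SIN1 KO arrays (log2). Each SIN1 KO value lay 0.47 or more above each wild type value, and the arrays within each genotype were 0.12 apart. The log2 difference was 0.59 (SE 0.25, 95% interval -0.07 to 1.26, limma adjusted p 0.82), a 1.51-fold higher level. Its unadjusted p of 0.0696 was the lowest among the members.

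Mcm5, which stands beside Mcm2 at the gate through which the ring opens onto DNA, was measured by 2 probe sets that were both higher in SIN1 KO, with unlike margins. Probe set 1415945_AT measured 8.72 and 9.27 on the wild type arrays, and 9.29 and 10.06 on the SIN1 KO arrays (log2). The genotypes did not overlap, but the gap between the nearest arrays was 0.02. Probe set 1436808_X_AT measured 9.82 and 10.17 on the wild type arrays, and 10.33 and 10.80 on the SIN1 KO arrays, with 0.16 between the nearest arrays. The log2 differences were 0.68 (SE 0.40, adjusted p 0.82) and 0.57 (SE 0.31, adjusted p 0.82), or 1.6-fold and 1.48-fold. Both probe sets ranked the 4 arrays in the same order, with wild type 1 lowest and SIN1 KO 2 highest. Averaged over both probe sets, Mcm5 was 9.50 ± 0.32 over the wild type arrays and 10.12 ± 0.44 over the SIN1 KO arrays (SD, n = 2).

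Mcm2, the other gate subunit, gave small differences. Probe set 1434079_S_AT measured 9.14 and 9.18 on the wild type arrays, and 9.23 and 9.56 on the SIN1 KO arrays (log2), a difference of 0.23 (SE 0.27, adjusted p 0.861) in which the nearest arrays were 0.05 apart. Probe set 1448777_AT measured 10.02 and 9.77 on the wild type arrays, and 9.79 and 10.11 on the SIN1 KO arrays, a difference of 0.06 (95% interval -0.69 to 0.81). SIN1 KO 1 lay between the wild type arrays and SIN1 KO 2 above them, and the average over both probe sets, 0.15, turned to -0.02 without SIN1 KO 2.

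Mcm3, the neighbour of Mcm5 in the ring, also overlapped between genotypes. Its probe set 1426653_AT measured 8.33 and 8.85 on the wild type arrays, and 8.39 and 8.46 on the SIN1 KO arrays (log2). Wild type 2 alone stood apart, and the difference of -0.16 (95% interval -0.97 to 0.64) became 0.10 without that array.

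Mcm4 and Mcm6, which with Mcm7 form the core that was first isolated as an active helicase, shared one pattern: highest on wild type 2 and lowest on SIN1 KO 2. For Mcm6, 1416251_AT measured 9.12 and 10.43 on the wild type arrays, and 9.81 and 8.75 on the SIN1 KO arrays (log2). Wild type 2 minus wild type 1 was thus 1.31 and SIN1 KO 2 minus SIN1 KO 1 was -1.06, against a genotype difference of -0.50 (SE 0.62, 95% interval -2.16 to 1.17, adjusted p 0.869). For Mcm4, 1416214_AT measured 8.88 and 9.52 on the wild type arrays, and 9.24 and 8.52 on the SIN1 KO arrays. The second Mcm4 probe set, 1436708_X_AT, measured 8.40 and 9.32 on the wild type arrays, and 8.97 and 8.20 on the SIN1 KO arrays. Its order of the arrays was that of the first, and after centring on their means the Mcm4 probe sets were never more than 0.16 apart on an array. The Mcm4 differences were -0.32 (SE 0.41, adjusted p 0.873) and -0.28 (SE 0.47, adjusted p 0.908). Number 1 and number 2 arrays gave Mcm4 and Mcm6 opposite signs: SIN1 KO 1 minus wild type 1 was 0.47 for Mcm4 and 0.69 for Mcm6, and SIN1 KO 2 minus wild type 2 was -1.06 and -1.69. These signs depend on the numbering, and the labels do not tie same-numbered arrays together. Set against the wild type array of the other number, each SIN1 KO array was lower for both genes.

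**Figure D2:**
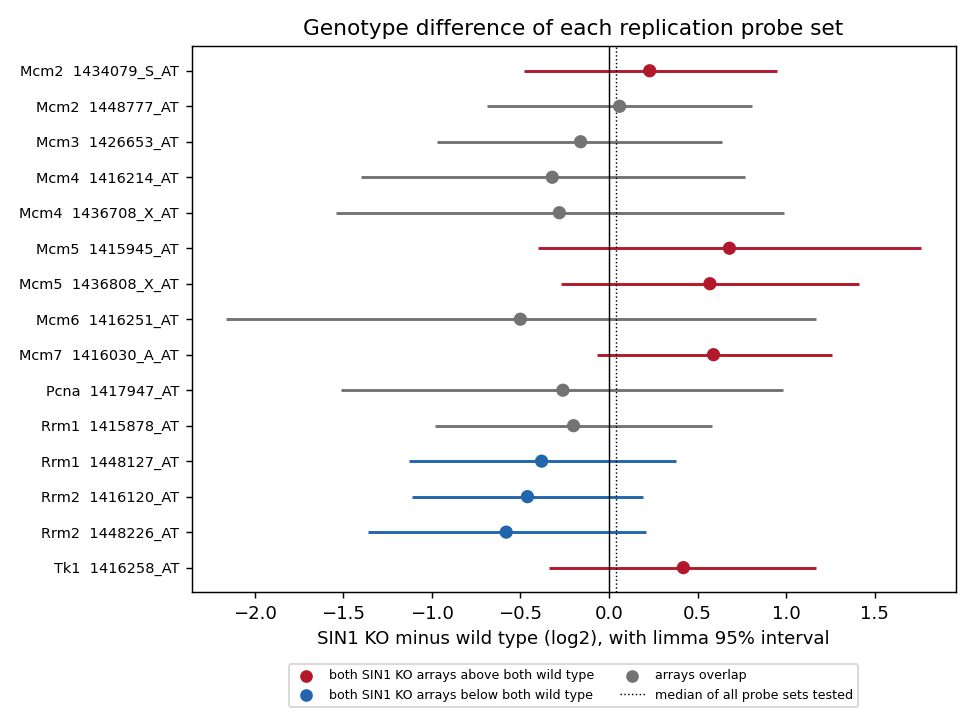
The log2 difference (SIN1 KO minus wild type) of each replication probe set is drawn with its 95% interval from limma, coloured by whether the arrays of the genotypes overlap; the dotted line is the median of all probe sets tested, 0.04. All 15 intervals include 0, and the differences run from -0.58 for an Rrm2 probe set to 0.68 for an Mcm5 probe set.

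The clamp gene Pcna was also lowest on SIN1 KO 2. Its probe set 1417947_AT measured 11.18 and 11.69 on the wild type arrays, and 11.70 and 10.64 on the SIN1 KO arrays (log2), so that the SIN1 KO arrays held both the highest and the lowest of the 4 values. The genotype difference of -0.26 (SE 0.46, adjusted p 0.911) had an interval from -1.51 to 0.98. Leaving out SIN1 KO 1 gave -0.79, and leaving out SIN1 KO 2 gave 0.26.

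The genes of deoxyribonucleotide supply had measured differences of unlike sign, each with a 95% interval that included 0. Rrm2, the small subunit of ribonucleotide reductase whose abundance limits the enzyme in cycling cells, measured lower in SIN1 KO with both of its probe sets. Probe set 1416120_AT measured 9.80 and 9.72 on the wild type arrays, and 9.32 and 9.28 on the SIN1 KO arrays (log2), with 0.40 between the nearest arrays and at most 0.08 between arrays of a genotype. Probe set 1448226_AT measured 10.36 and 10.52 on the wild type arrays, and 10.09 and 9.64 on the SIN1 KO arrays, with 0.27 between the nearest arrays. The log2 differences were -0.46 (SE 0.24, adjusted p 0.82) and -0.58 (SE 0.29, adjusted p 0.82), which are 1.38-fold and 1.49-fold lower levels in SIN1 KO. Averaged over both, Rrm2 was 10.10 ± 0.03 over the wild type arrays and 9.58 ± 0.18 over the SIN1 KO arrays (SD, n = 2).

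Rrm1, the large subunit that carries the catalytic and regulatory sites, gave smaller differences in the same direction. Probe set 1448127_AT measured 9.97 and 10.39 on the wild type arrays, and 9.85 and 9.76 on the SIN1 KO arrays (log2), a difference of -0.38 (SE 0.28, adjusted p 0.821) without overlap. Probe set 1415878_AT measured 10.50 and 10.95 on the wild type arrays, and 10.62 and 10.43 on the SIN1 KO arrays, a difference of -0.20 (SE 0.29, adjusted p 0.89) with overlap. Wild type 2 was the highest array for both, and without it the average over both probe sets moved from -0.29 to -0.07.

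Tk1, the salvage enzyme, measured higher in SIN1 KO. Its probe set 1416258_AT measured 9.79 and 9.58 on the wild type arrays, and 9.92 and 10.28 on the SIN1 KO arrays (log2), with 0.13 between the nearest arrays. The log2 difference was 0.42 (SE 0.28, 95% interval -0.34 to 1.17, adjusted p 0.82), or 1.33-fold, and it was 0.23 without SIN1 KO 2.

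Counted over the members, 5 of 15 probe sets had each SIN1 KO array above each wild type array, beside 20.4% of all probe sets tested, and 3 of 15 had each below, beside 14.9% of all. The 5 belong to Mcm2, Mcm5 (both probe sets), Mcm7 and Tk1, and the 3 to Rrm1 and Rrm2 (both probe sets). The split between the directions depended on the scaling of the arrays: it was 3 higher and 3 lower after cyclic loess, beside 19.2% and 17.6% of all probe sets, and 6 higher and 1 lower after scaling to the hybridisation controls, beside 51.4% and 4.21% of all. Cyclic loess removed 1434079_S_AT and 1415945_AT from the higher ones, and the scaling left 1416120_AT of Rrm2 as the lower one. Those controls, which are foreign transcripts spiked in at hybridisation, were 0.32 lower in SIN1 KO on the log2 scale, so scaling to them moved the median difference of all probe sets from 0.04 to 0.36 and that of the members to 0.12. The unadjusted calls over all probe sets moved with it, from 1350 higher and 1159 lower to 5381 and 370, and 3 members were then among those called higher (Mcm5 1436808_X_AT, Mcm7 and Tk1, each with a limma adjusted p of 0.383). The scaling subtracts a constant from each array, so the difference of every probe set, members included, moved up by the same 0.32. Which scaling is right was not tested.

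A genotype difference larger than the larger of the gaps within a genotype was found for 5 of 15 members, beside 22.4% of all probe sets. These were 1436808_X_AT of Mcm5, 1416030_A_AT of Mcm7, both Rrm2 probe sets and 1416258_AT of Tk1. The median size of the members' differences, regardless of sign, was 0.38 between genotypes, 0.42 between the wild type arrays and 0.36 between the SIN1 KO arrays. Over the brighter part of the table, from the median level up (22519 probe sets), in which all 15 members lie, the same medians were 0.46, 0.56 and 0.56.

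Wild type 2 and SIN1 KO 2 set most of the extremes, among the members as over the whole table. Wild type 2 was the highest array for 7 members, beside 28.5% of all probe sets, and SIN1 KO 2 for 5, beside 37.2%. SIN1 KO 2 was the lowest for 8 members, beside 26.1% of all, wild type 1 for 5, beside 16.4%, wild type 2 for 2, beside 37.6%, and SIN1 KO 1 for 0, beside 19.9%. Wild type 2 highest together with SIN1 KO 2 lowest occurred in 6 of 15 members (both probe sets of Mcm4 and of Rrm1, Mcm6, and 1448226_AT of Rrm2), beside 16.2% of all probe sets and 24.7% of the brighter ones. The mirror image, SIN1 KO 2 highest and wild type 2 lowest, occurred in 2 of 15 (1448777_AT of Mcm2, and Tk1), beside 22.6% of all. SIN1 KO 2 highest with wild type 1 lowest occurred in 3 (1434079_S_AT of Mcm2 and both Mcm5 probe sets), beside 6.23% of all. These patterns were picked out after the values were seen, and probe sets of a gene share their transcript.

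**Figure D3:**
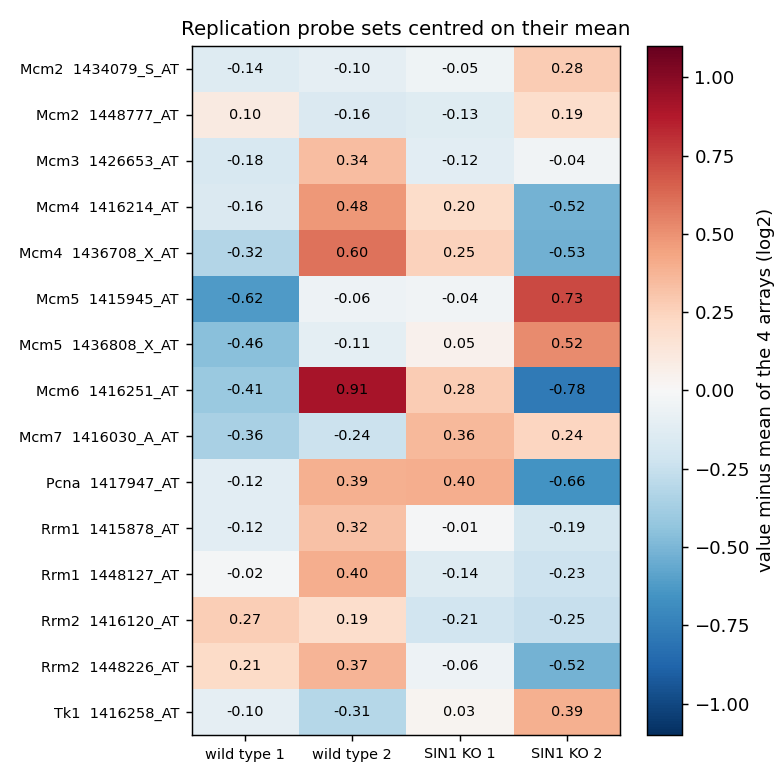
Each cell gives the log2 value of a replication probe set on an array minus that probe set's mean over the 4 arrays, with red above and blue below the mean. Mcm6 runs from 0.91 on wild type 2 to -0.78 on SIN1 KO 2. The rows of Mcm3, Mcm4, Pcna, Rrm1 and Rrm2 have the same signs on those 2 arrays, whereas Mcm5 has its highest value on SIN1 KO 2.

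The arrays can also be set side by side in pairs by their numbers. The median of the members' log2 differences was 0.13 for SIN1 KO 1 minus wild type 1 and -0.45 for SIN1 KO 2 minus wild type 2, beside -0.02 and 0.13 over all probe sets. The sign was shared by both pairs for 8 of 15 members, beside 45.7% of all probe sets. Mcm5 (0.54 and 0.71), Mcm7 (0.72 and 0.47) and Tk1 (0.13 and 0.70) were higher in SIN1 KO in both pairs, and Rrm2 was lower in both (-0.37 and -0.67). Pcna was 0.52 higher in SIN1 KO in the number 1 pair, while its difference in the number 2 pair was -1.04. The labels do not tie same-numbered arrays together, so the pairs are shown as a description. Paired the other way, Mcm4 and Mcm6 were lower in SIN1 KO in both pairs, and Pcna was nearly level in one pair. Mcm5, Mcm7, Tk1 and Rrm2, without overlap, keep their sign under any pairing.

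**Figure D4:**
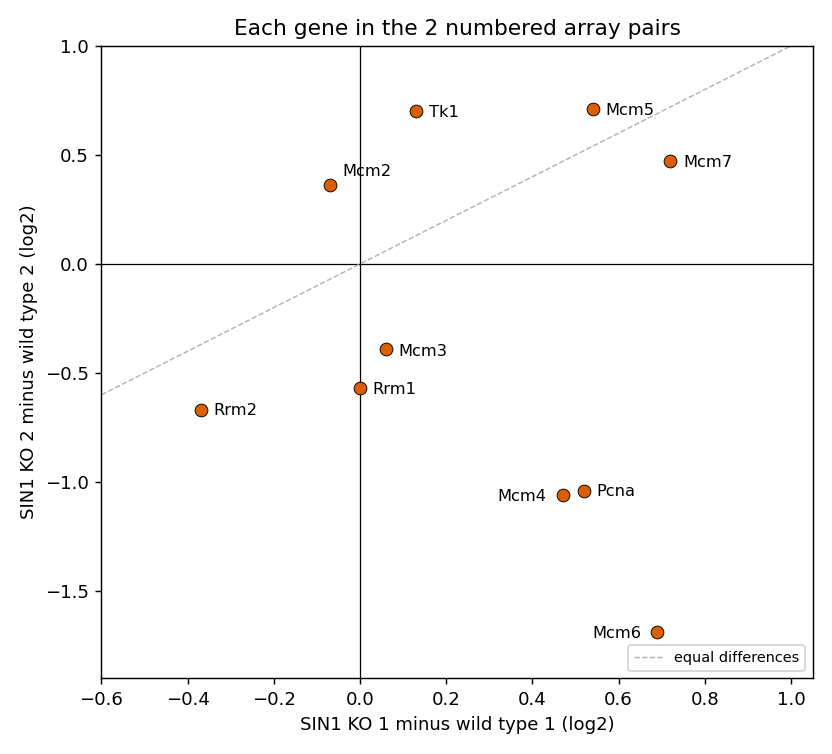
Each of the 10 genes (mean of its probe sets) is placed by its log2 difference between the number 1 arrays (horizontal axis) and between the number 2 arrays (vertical axis); the dashed line marks equal differences. Mcm5, Mcm7 and Tk1 lie above 0 on both axes and Rrm2 below 0 on both, while Mcm4, Mcm6 and Pcna lie to the right of 0 and below it.

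Leaving out 1 array at a time separated the genes in the same manner. Mcm7 stayed between 0.53 and 0.66, Rrm2 between -0.64 and -0.39, Tk1 between 0.23 and 0.60 and Mcm5 between 0.31 and 0.93. Mcm5 was lowest without SIN1 KO 2 and highest without SIN1 KO 1. Mcm6 ran from -1.15 without wild type 1 to 0.16 without wild type 2, Mcm4 from -0.68 to 0.09, and Pcna from -0.79 to 0.26. For Mcm3, Mcm4 and Mcm6 the sign turned without wild type 2, and for Mcm2, Mcm4, Mcm6 and Pcna it turned without SIN1 KO 2. Since each such fit shares arrays with the others, the steadiness of the first 4 genes restates that their genotypes did not overlap.

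**Figure D5:**
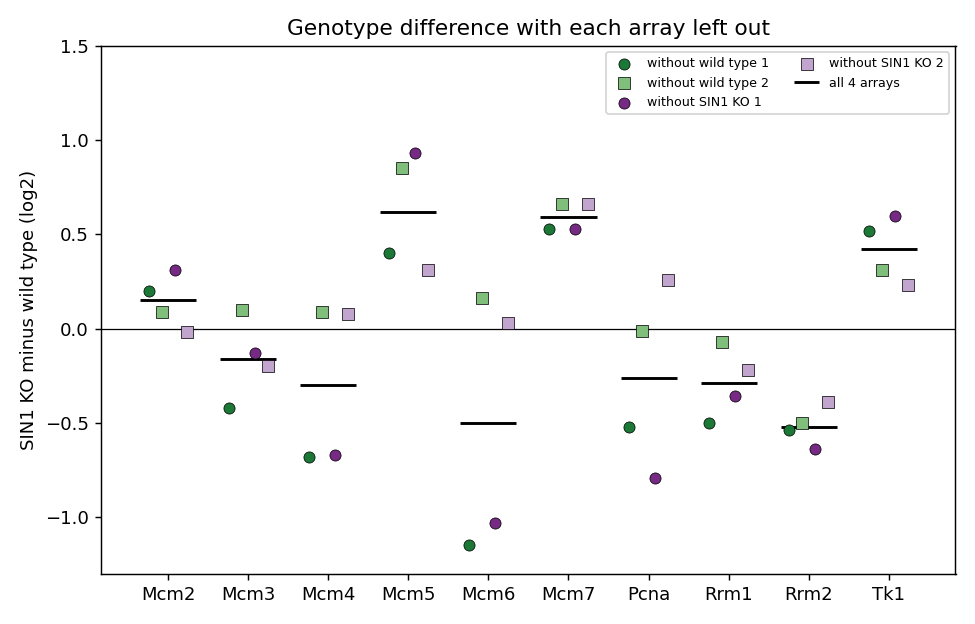
The log2 difference (SIN1 KO minus wild type) of each gene is shown with all 4 arrays (line) and with each array left out in turn (points). The points of Mcm5, Mcm7 and Tk1 stay above 0 and those of Rrm1 and Rrm2 below it, and those of Mcm6 spread from -1.15 to 0.16.

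A ratio between genes on the same array is not altered by a constant shift of that array, such as median centring or scaling to the hybridisation controls, though it can be by an intensity-dependent normalization such as cyclic loess. The log2 ratio of Mcm7 to Rrm2 was -1.65 and -1.57 on the wild type arrays and -0.56 and -0.43 on the SIN1 KO arrays; its level also reflects the probes, so that its change alone is read. That change was 1.11, a 2.16-fold gain of Mcm7 over Rrm2 in SIN1 KO, with 1.01 between the nearest arrays. The ratio of Mcm5 to Rrm2 gained 1.14 and that of Tk1 to Rrm2 gained 0.93, each with 0.50 between the nearest arrays. Within the helicase, the ratio of Mcm7 to Mcm6 gained 1.09 with 0.03 between the nearest arrays, and that of Mcm5 to Mcm6 gained 1.12 with overlap. The ratios share genes, and Mcm7, Mcm5 and Rrm2 are singled out because they lay at the ends of the range, so their gains are given without a test. Of the 45 pairs of genes, 18 had ratios that did not overlap between the genotypes, among them 4 of the 9 pairs with Rrm2. The share among ratios of other genes on the array was not computed, so these counts are not read as a result. Among single probe sets, 20.4% of all tested lay higher and 14.9% lower in SIN1 KO without overlap.

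Over all arrays the medians of the tested probe sets were alike, from 4.23 to 4.32 on the log2 scale, and the lowest adjusted p of any probe set was 0.128. Mapkap1 and the marker genes of fibroblasts and other cell types were not analysed here, so neither the genotype nor the cell type on the labels was checked. Because RNA came from whole cultures, a different share of S phase cells and a different RNA level per cell could not be told apart. No member passed the adjusted threshold in either direction.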

How the data were processed

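The deposited table holds log2 values that the authors made with RMA, per the submitters' processing notes; the RMA version is not given in the sources used here, and the log2 scale was taken from the range of the values. RMA normalizes between arrays, which would hide a shift shared by most transcripts. Of the 45101 probe sets, 64 named array controls were left out. The remaining 45037 were tested for a genotype difference with limma 3.58.1 in R 4.3.3 (lmFit and eBayes, residual degrees of freedom 2, prior degrees of freedom 2.38), Benjamini-Hochberg adjustment over all of them and a threshold of 0.05. The fit's mean estimates were checked on simulated data with changes larger than any member's. That check does not bear on power at the members' differences. Values of a gene are means of its probe sets, given without a test. Groups and array numbers came from the sample titles. All 15 members are named, and they were chosen with earlier results of these data known. Other replication genes, Mapkap1, cell type markers and MCM proteins were not analysed here. Figures used matplotlib 3.10.9.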

Additional observations from a re-analysis of the deposited data

How the results depend on the processing

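No member passed the adjusted threshold under any alternative run (cyclic loess, median centring, scaling to the hybridisation controls, keeping the brighter probe sets alone, trended or robust priors, both blocks and each array left out), and with so few arrays that says little about stability. Over all probe sets, keeping those from the median level up gave 5 calls, each higher in SIN1 KO, and the unadjusted threshold 1350 higher and 1159 lower. The replicate block gave 0 calls. Arrays of the same number tended to lie on opposite sides of their group means (r = -0.415 across probe sets), though not for every gene. The crossed pairing, added after seeing this, gave 0 (unadjusted 2899 higher and 3473 lower, against 663 and 630 with the replicate block). The members' median difference of -0.20 was 0.12 after scaling to the hybridisation controls, 0.13 in the number 1 arrays, -0.45 in the number 2 arrays and -0.42 to 0.10 with an array left out. Members above both wild type arrays numbered 3 after cyclic loess (19.2% of all probe sets) and 11 in the number 1 pair (47.7% of all). They also numbered 3 without the 3 members of suffix s or x, which can bind transcripts of several genes. Fewer members remain in that count, and the share over all probe sets was 20.4% with such probe sets kept. Members below numbered 1 after scaling to the hybridisation controls (4.21% of all), 9 in the number 2 pair (42% of all) and 3 to 8 with an array left out (28.0% to 33.2% of all), where fewer arrays loosen the rule. Of 103 alternative values of the 10 genes, 81 stayed within 1 SD of the replicates, 22 did not, and 16 changed sign. Leaving out 1 of 2 arrays always moves a difference by less than that SD, so those values stayed within it whatever the data. No value of Mcm5, Mcm7, Rrm2 or Tk1 changed sign. Their genotypes did not overlap, so leaving out an array or taking a numbered pair alone could not change it. The cause of the moves and sign changes was not tested.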
